A study of Mus musculus with 30 samples.

Results

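The genes that make, recycle and use glutathione were followed on 30 microarrays of mouse lymphoma cells exposed to mafosfamide, an analog of cyclophosphamide that needs no activation by the liver. The 10 members were Slc7a11, Gclc, Gclm, Gss, Gsr, Gsto1, Gstm1, Gsta4, Gpx1 and Gpx4. They were picked by name, with earlier results of these data known. Each was represented by a probe set whose annotation held that symbol alone, and by the brightest such probe set where there were several. All 10 were measured, among 19937 named genes. The cells came from 1 lymphoma of a C57BL/6J mouse that carried the Eµ-Myc transgene, in which an immunoglobulin heavy chain enhancer drives Myc in B-lineage cells, and that lacked Cdkn2a (Cdkn2a-/-). Parental cells were sampled before treatment (0 h, 5 arrays) and after 6, 12, 24 and 48 h in 750 nM mafosfamide (4, 4, 5 and 5 arrays). The resistant lines R100, R500, R1000 and R4000, taken at 100, 500, 1000 and 4000 nM of the drug, were measured untreated on 1 array each. All of them but R100 also had an array after 24 h in 750 nM, again 1 per line. These lines are steps of the same dose escalation and share their history. All cultures, parental and resistant, were grown on irradiated Cdkn2a-/- mouse embryonic fibroblasts as feeder cells.

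Glutathione is a tripeptide of glutamate, cysteine and glycine that cells use to reduce peroxides and to bind reactive compounds. Slc7a11 imports cystine, the source of cysteine; Gclc and Gclm are the catalytic and the modifier subunit of glutamate-cysteine ligase, the rate-limiting enzyme of synthesis, and Gss adds the glycine. Gsr returns oxidized glutathione to its reduced form, the transferases Gsto1, Gstm1 and Gsta4 use it on electrophiles and thiols, and the peroxidases Gpx1 and Gpx4 spend it on hydrogen peroxide and on lipid peroxides. Glutathione conjugation is a known route by which cells dispose of alkylating drugs, and many of these genes are known targets of the transcription factor NRF2.

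Values are log2 probe set levels, so a difference of 1 is a doubling on this scale, and the levels of different genes were not set against each other. A gene was called where its adjusted p in limma, corrected over all 19937 genes, was under 0.05. Array medians over all probe sets lay between 7.28 and 7.44, and the fifth 0 h array had the narrowest spread: its interquartile range was 3.07, and those of the others ran from 3.34 to 3.64. The labelled cell type was checked against marker genes: 8 of 9 measured B-lineage markers lay above the median of all values (7.56) in untreated parental cells, and 0 of 7 T and NK markers did. Of 24 measured fibroblast markers, 15 lay above that median, between 4.71 for Lum and 10.59 for Acta2. Their mean level varied between arrays, from 7.94 to 8.49 at 0 h, 7.82 to 8.19 at 6 h, 7.91 to 8.48 at 12 h, 8.20 to 9.61 at 24 h and 7.82 to 9.01 at 48 h, and was between 7.79 and 8.33 on the resistant arrays. At 24 h 13 of the 24 markers were called higher than at 0 h, and 4 of the 5 arrays lay above the 0 h range. In such bulk samples, fewer cells of a type and less RNA per cell cannot be told apart.

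The first question was whether the drug changed these genes in parental cells. Gclm was higher than at 0 h at 6, 12 and 24 h, and 24 h was the time with the most calls: Gclm, Slc7a11, Gsto1 and Gstm1 rose. At 6 h 1 of 10 members was called, beside 0.0201% of all genes, and at 12 h again 1 of 10, beside 0.512%. Both calls were Gclm. At 24 h 4 of 10 members were called higher and 0 lower, beside 6.78% of all genes. The median change of the 10 members at 24 h was 0.34, against -0.04 over all genes. Over the 9968 genes whose mean level lay above the median gene, it was 0.06. In a fit of these brighter genes alone, 785 were called higher and 267 lower (10.6%). All members but Slc7a11 were among them. Because the members were chosen with earlier results known, these contrasts with all genes are descriptions. Over all genes 867 were called higher and 484 lower at 24 h, a split that was 788 to 1029 after centring each array on its median and 870 to 232 after centring on housekeeping genes; the 4 members were called higher under both. At 48 h 0 of 10 members were called, beside 0.251% of all genes, and 5 of 10 had an unadjusted p under 0.05 in limma, beside 11.7% of all genes.

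**Figure D1:**
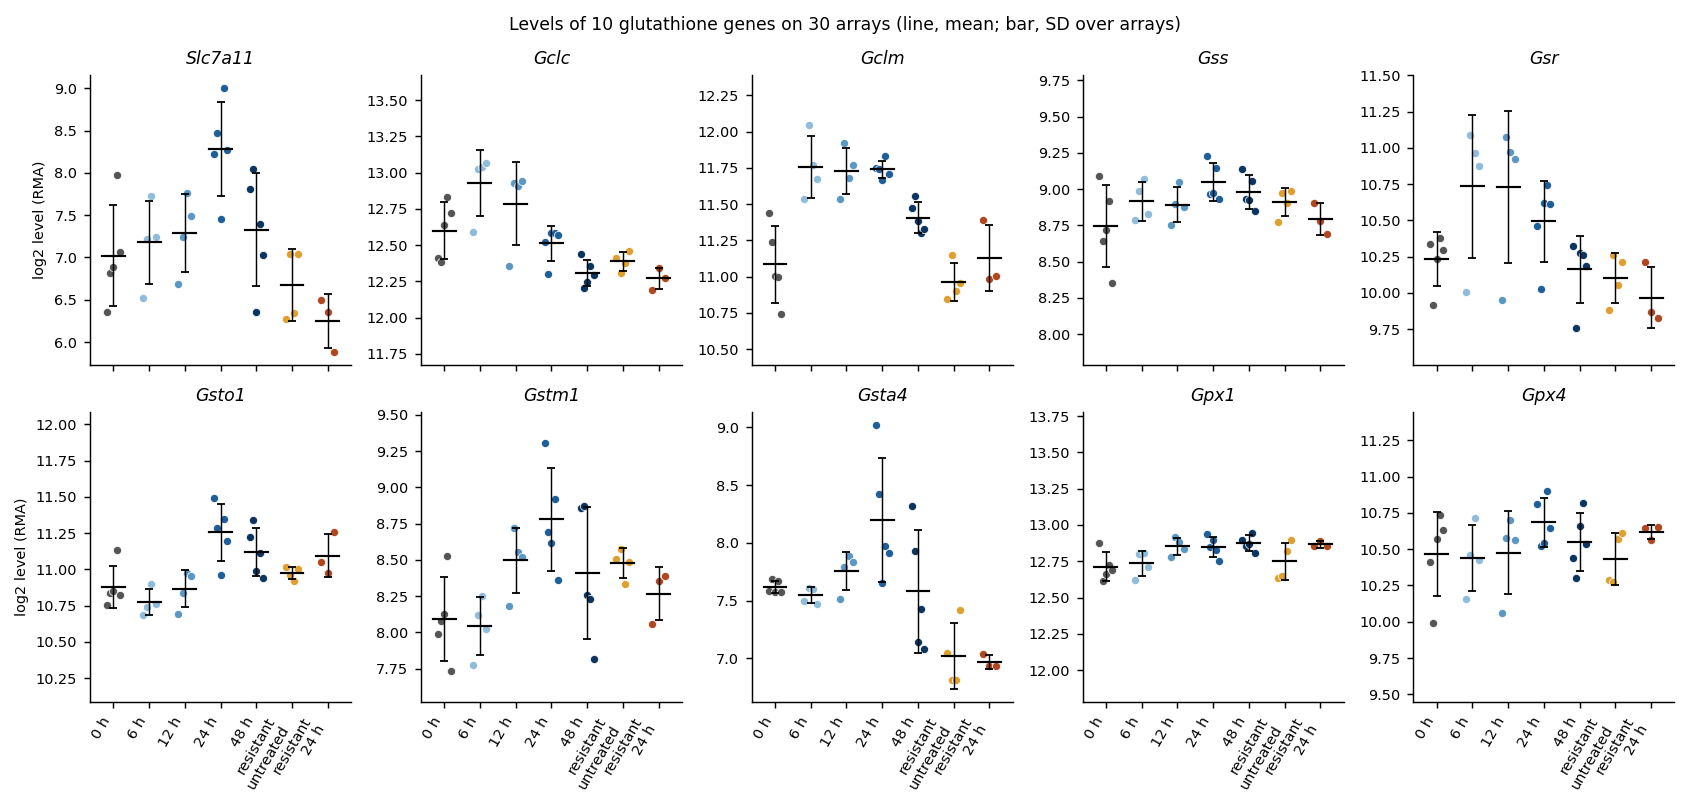
Log2 level of each member (vertical axis, each panel on its own scale of at least 2 units) by group (horizontal axis: hours of 750 nM mafosfamide for the parental cells, then the resistant lines untreated and after 24 h); points are arrays, lines are means and bars are SDs. Gclm at 6, 12 and 24 h lies above all 5 arrays at 0 h, and Slc7a11 is highest at 24 h with a mean of 8.28.

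Gclm, the modifier subunit of the synthetic ligase, measured 10.74, 11.00, 11.00, 11.24 and 11.44 on the 5 arrays at 0 h. At 6 h it measured 11.53, 11.68, 11.77 and 12.05, and at 12 h it measured 11.54, 11.68, 11.77 and 11.92. Every array at these times lay above every untreated array, as was so for 0.657% of all genes at 6 h and for 1.71% at 12 h. At 24 h Gclm measured 11.67, 11.71, 11.74, 11.75 and 11.83, again above the whole 0 h range, as was so for 1.98% of all genes and for no other member. The 24 h arrays spread much less than the 0 h arrays, with an SD of 0.06 against 0.27. The rise was 0.67 at 6 h (SE 0.11, adjusted p = 0.041), 0.64 at 12 h (SE 0.11, adjusted p = 0.0066) and 0.65 at 24 h (SE 0.11, adjusted p = 0.0013), or 1.59-, 1.56- and 1.57-fold. The mean therefore stood at nearly the same height at these 3 times (11.76, 11.73 and 11.74), with differences smaller than the SD between arrays. At 48 h the arrays measured 11.30, 11.33, 11.38, 11.47 and 11.55 and overlapped the 0 h range, and the difference of 0.32 (SE 0.11) was not called (adjusted p = 0.28). The 24 h call held without each array in turn, with an adjusted p between 0.00025 and 0.0057. The 6 h call held in only 3 of 9 such fits, with an adjusted p up to 0.22, and it was lost without 0 h array 3, 4 or 5 or 6 h array 2, 3 or 4 (numbered by title). The 12 h call was lost without 12 h array 2 by title (adjusted p = 0.050).

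Gclm had a lower correlation with the fibroblast markers than Slc7a11 and the transferases described further on. Over the 23 parental arrays its level had a correlation of 0.18 with their mean, as a description of arrays that share groups and culture numbers. With that mean as a covariate the change was 0.67 at 6 h, 0.64 at 12 h and 0.66 at 24 h, all called (adjusted p = 0.029, 0.0075 and 0.013), in fits that called 0.0502%, 0.943% and 2.49% of all genes. Paired by culture numbers 1 to 5, the 24 h rise of Gclm was 0.31, 0.50, 0.66, 0.83 and 0.97. In the same order the fibroblast mean rose by 1.58, 1.30, 0.21, 0.52 and 0.54. Cultures 1 and 2, with the largest fibroblast rises, thus had the smallest rises of Gclm. How feeder cells bore on the Gclm level was not tested. The single 24 h array whose fibroblast mean of 8.20 lay inside the 0 h range had a Gclm level of 11.67, above all 5 arrays at 0 h. A fit that kept only this 24 h array gave 0.58 (SE 0.20), with an adjusted p of 0.37, and called 0.135% of all genes.

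The bases before the start of Gclm and Slc7a11 are printed because Gclm was the member called at 3 times and Slc7a11 the member with the largest change. Each is the 250 bases before the RefSeq transcript start on assembly GRCm38.p6, in the direction of the gene. The Gclm window is chr3:122245307-122245556 on the plus strand, and the Slc7a11 window is chr3:50443614-50443863 on the minus strand. Capitals mark matches to TGACNNNGC, the core of the antioxidant response element that NRF2 binds with a small MAF protein, or to TGATGNAA, a form of the amino acid response element that ATF4 binds.
Gclm: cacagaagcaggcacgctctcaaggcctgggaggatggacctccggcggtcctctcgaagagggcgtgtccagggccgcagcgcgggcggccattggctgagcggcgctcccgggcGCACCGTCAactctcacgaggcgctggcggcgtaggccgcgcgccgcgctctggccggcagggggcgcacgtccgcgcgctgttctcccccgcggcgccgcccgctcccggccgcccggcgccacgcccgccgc
Slc7a11: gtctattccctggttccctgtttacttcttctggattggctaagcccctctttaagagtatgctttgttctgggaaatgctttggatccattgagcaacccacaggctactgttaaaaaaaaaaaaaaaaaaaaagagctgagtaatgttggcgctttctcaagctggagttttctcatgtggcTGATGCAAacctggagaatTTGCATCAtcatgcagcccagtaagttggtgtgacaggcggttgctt

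Both strands were searched, and matches of different motifs did not overlap. The Gclm window held 1 match to TGACNNNGC, read on the other strand (GCACCGTCA), from 134 to 126 bases before the start. The Slc7a11 window held 2 matches to TGATGNAA, TGATGCAA from 66 to 59 bases and TTGCATCA from 47 to 40 bases before the start, the second on the other strand. Windows of the same length before 32851 RefSeq starts held TGACNNNGC in 10.2% and TGATGNAA in 3.45%. Of the 7 members with a window in the table, 1 held each of these motifs, and 0 held CACGTG (6.02% of all windows) or TGAGTCA (4.46%). Gclc, Gsr and Gsta4 have no entry. These matches describe letters only.

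Slc7a11, the cystine importer, had the largest change of the 10 members. It measured 6.36, 6.82, 6.88, 7.06 and 7.98 at 0 h. At 24 h it measured 7.46, 8.22, 8.27, 8.47 and 9.01, so that 4 of 5 arrays lay above the highest untreated array and 1 lay inside the untreated range. The change was 1.26 (SE 0.33, adjusted p = 0.027), or 2.40-fold with a 95% interval of 0.59 to 1.94 on the log2 scale. At 6 h the arrays measured 6.52, 7.22, 7.24 and 7.73, at 12 h 6.68, 7.24, 7.49 and 7.76, and at 48 h 6.36, 7.03, 7.40, 7.81 and 8.04, and all 3 groups overlapped 0 h. Changes at those times were 0.16, 0.27 and 0.31, and none was called (adjusted p = 0.999, 0.75 and 0.67). Paired by the culture number in the sample descriptions, Slc7a11 was higher at 24 h in 5 of 5 cultures, by 0.58 to 1.87. The call was lost without array 3 or 5 at 0 h, or without array 2 or 4 at 24 h.

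**Figure D2:**
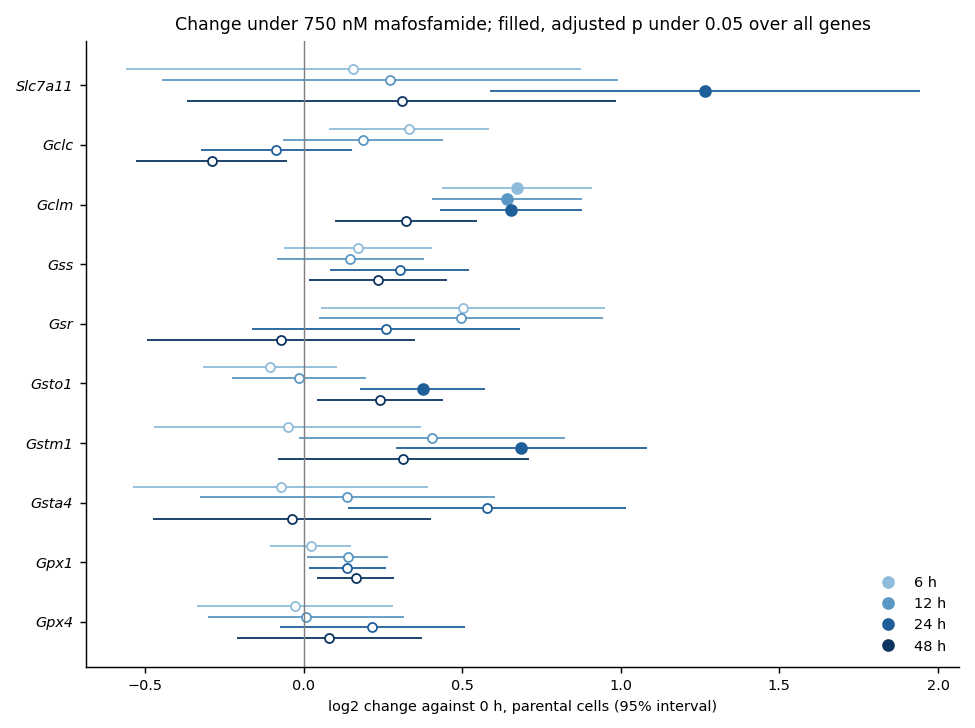
Log2 change of each member against 0 h (horizontal axis) at 6, 12, 24 and 48 h in parental cells, with 95% intervals from limma; filled points passed an adjusted p of 0.05 over all genes. Gclm is filled at 6, 12 and 24 h, Slc7a11, Gsto1 and Gstm1 are filled at 24 h, and no point is filled at 48 h.

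Among the transferases, Gsto1 and Gstm1 were called at 24 h and Gsta4 was not. Gsto1, an omega-class enzyme with thiol transferase activity, measured 10.76, 10.83, 10.84, 10.85 and 11.13 at 0 h. It measured 10.96, 11.19, 11.28, 11.35 and 11.49 at 24 h, with 4 of 5 arrays above the highest untreated array. Its change was 0.37 (SE 0.10, adjusted p = 0.025), or 1.30-fold, and it was near 0 at 6 and 12 h (-0.11 and -0.01).

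Gstm1, a mu-class transferase, measured 7.74, 7.99, 8.08, 8.13 and 8.53 at 0 h and 8.36, 8.62, 8.69, 8.92 and 9.30 at 24 h, and the lowest treated array overlapped the highest untreated array. Its change was 0.69 (SE 0.19, adjusted p = 0.036), or 1.61-fold. Mu-class genes are close in sequence, and the part of related transcripts in this probe set was not tested. The 12 h arrays measured 8.18, 8.52, 8.56 and 8.72, with a change of 0.40 that was not called (adjusted p = 0.44).

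Gsta4, an alpha-class transferase that acts on the lipid peroxidation product 4-hydroxynonenal, was the steadiest transferase before treatment, at 7.57, 7.58, 7.59, 7.67 and 7.69. At 24 h it measured 7.66, 7.91, 7.97, 8.42 and 9.02, and its SD went from 0.05 at 0 h to 0.54. The change of 0.58 (SE 0.21) was not called (adjusted p = 0.087), although Gsta4 was higher in 5 of 5 cultures, by 0.08 to 1.43. Each transferase call depended on single arrays: Gsto1 was called in 5 of 10 fits that left out an array and Gstm1 in 4 of 10. Both were lost without 0 h array 3 or 5 or 24 h array 1, 2 or 4, and Gstm1 also without 0 h array 2.

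Slc7a11 and the 3 transferases moved with the fibroblast markers. Over the 23 parental arrays the correlation with the fibroblast mean was 0.90 for Gsto1, 0.82 for Gsta4, 0.80 for Slc7a11 and 0.74 for Gstm1, against 0.45 or less for the other 6 members. After the group means were taken off, the same 4 members stood at 0.82, 0.79, 0.67 and 0.56, and the other 6 between -0.23 and 0.25. These are descriptions over arrays that share groups, with no test. By culture, the 24 h rise of the fibroblast mean was 1.58, 1.30, 0.21, 0.52 and 0.54 for culture numbers 1 to 5. Culture 3, with the smallest rise, had the smallest rise of Slc7a11 (0.58), Gsto1 (0.11) and Gsta4 (0.08) but not of Gstm1 (0.49, against 0.39 in culture 4). With the fibroblast mean as a covariate the 24 h changes were 0.41 for Slc7a11, 0.27 for Gstm1, 0.09 for Gsto1 and -0.07 for Gsta4, and 0 of these 4 were called (adjusted p = 0.48, 0.48, 0.55 and 0.84). Of all 10 members, 1 (Gclm) was then called at 24 h, beside 2.49% of all genes against 6.78% without the covariate. In a fit with only the 24 h array of culture 3, the change was 0.44 for Slc7a11, 0.52 for Gstm1, 0.08 for Gsto1 and 0.04 for Gsta4, and 0 of 10 members were called, on 1 array, beside 0.135% of all genes. How much of these 4 signals came from the feeder cells was not tested.

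**Figure D3:**
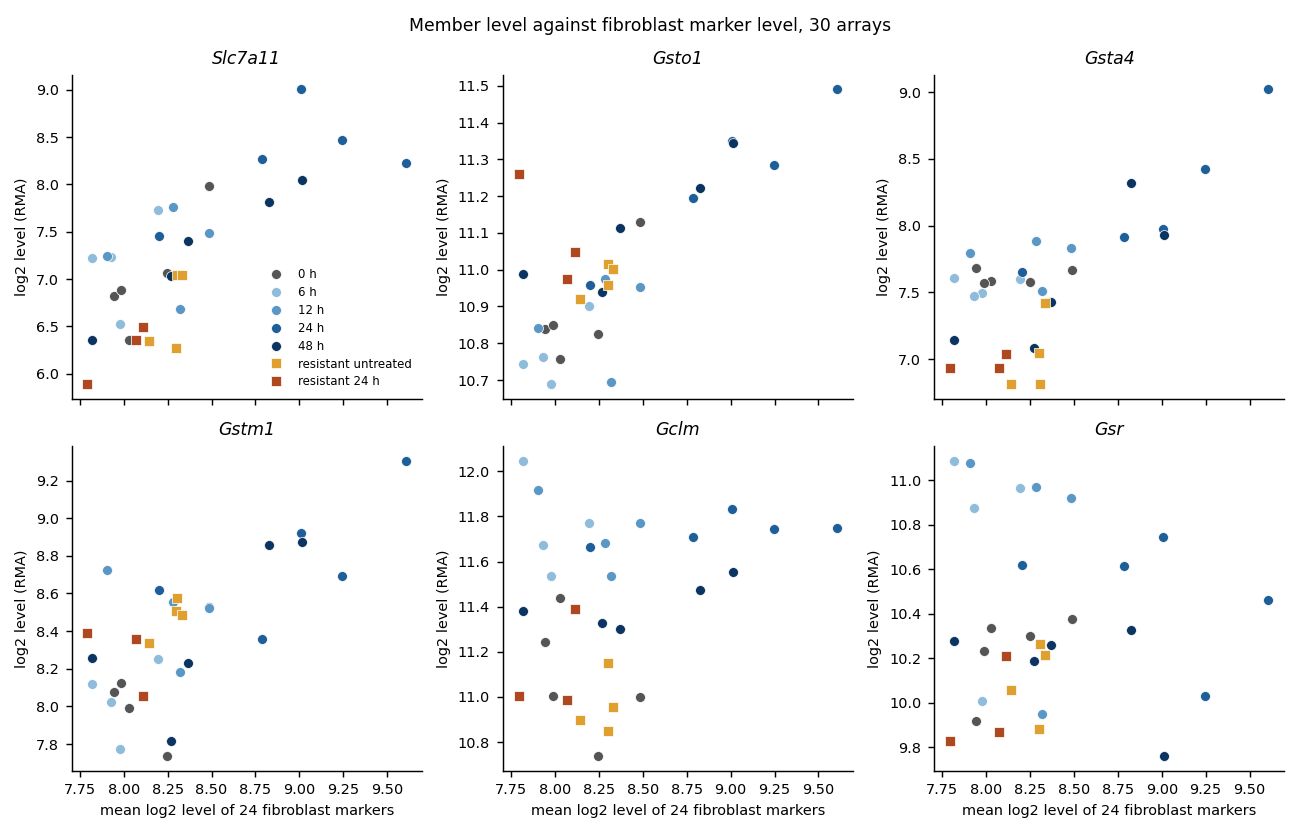
Log2 level of 6 members (vertical axes, own scales) against the mean log2 level of 24 fibroblast markers (horizontal axis) on all 30 arrays, coloured by group, with resistant lines as squares. The highest 3 values of Slc7a11, Gsto1, Gsta4 and Gstm1 lie on arrays whose fibroblast mean is above the 0 h maximum of 8.49, while Gclm at 24 h stays between 11.67 and 11.83 across a fibroblast mean of 8.20 to 9.61.

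Gsr, which regenerates reduced glutathione, and Gclc, the catalytic subunit of the ligase, are described together. Gsr measured 9.92, 10.23, 10.30, 10.34 and 10.38 at 0 h. At 6 h it measured 10.01, 10.87, 10.97 and 11.09, and at 12 h 9.95, 10.92, 10.97 and 11.08. At both times 3 of 4 arrays lay above the untreated range and 1 stayed inside it, and the low array was culture number 2 each time, which was also the lowest at 0, 24 and 48 h. A low culture number 2 was not particular to Gsr. It was the lowest array of every member at 12 h and of every member but Gsta4 at 6 h. For Gpx4 it was the lowest at all of these times. The Gsr changes of 0.50 at 6 h and 0.50 at 12 h (SE 0.22 each) were not called (adjusted p = 0.88 and 0.39). With the culture number as a block, 2 of 10 members were called at 6 h, beside 0.311% of all genes: Gclm (0.71, adjusted p = 0.0084) and Gsr (0.52, SE 0.10, adjusted p = 0.023).

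Gclc measured 12.38, 12.41, 12.64, 12.72 and 12.83 at 0 h and 12.59, 13.03, 13.04 and 13.06 at 6 h, with culture 2 again the low array. It was higher at 6 h in 4 of 4 cultures, by 0.21 to 0.39, and lower at 48 h in 4 of 5, with a change of -0.29 (SE 0.11, adjusted p = 0.36). The 0.33 at 6 h was not called (adjusted p = 0.75), nor were 0.19 at 12 h and -0.09 at 24 h. Gclc and Gsr had the highest correlation of any pair of members over the parental arrays, at 0.84. At 24 h Gclc had a mean of 12.51 against 12.60 at 0 h, at a time when its partner Gclm was called higher; the difference between the subunits was not tested.

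**Figure D4:**
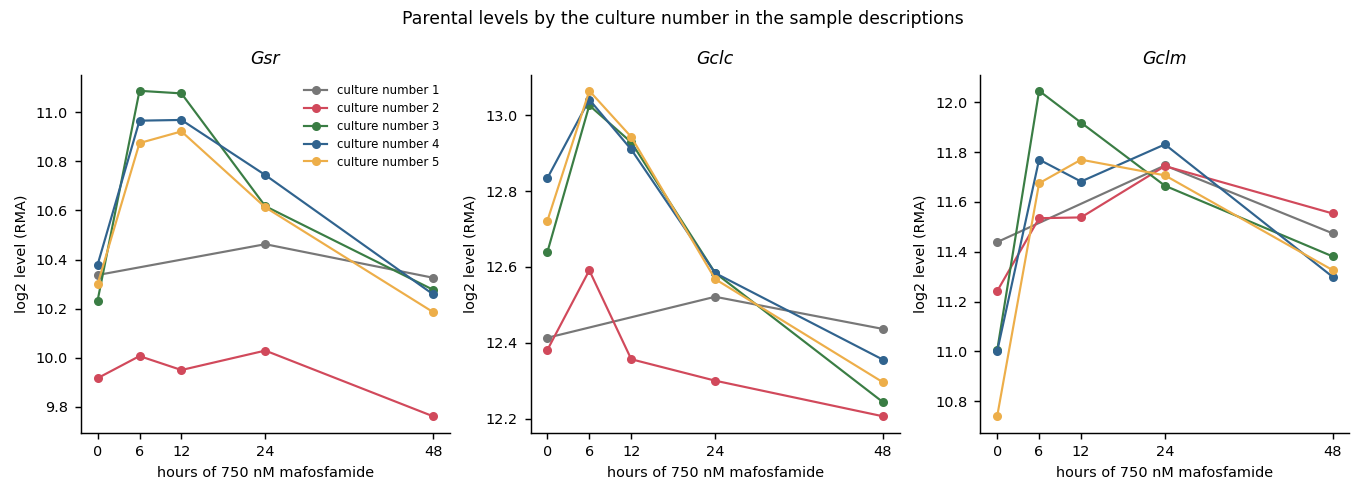
Log2 level of Gsr, Gclc and Gclm (vertical axes, own scales) against hours of 750 nM mafosfamide, with lines joining parental arrays that carry the same culture number; culture number 1 has no 6 h or 12 h array. Culture 2 is the lowest for Gsr at all 5 times, at 10.01 at 6 h where the others lie between 10.87 and 11.09, and the Gclm lines all rise from 0 h to 24 h.

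Gss, which completes the tripeptide, measured 8.35, 8.64, 8.72, 8.92 and 9.09 at 0 h and 8.93, 8.96, 8.97, 9.15 and 9.22 at 24 h. The groups overlapped, and the change of 0.30 (SE 0.11) was not called (adjusted p = 0.076). Paired by culture number it was higher in 5 of 5 cultures, by 0.13 to 0.58. The same was so for 8 of the 10 members at 24 h, all but Gclc and Gpx4. How many of all genes rose in every culture was not counted. By the mean change at 24 h, 9 of 10 members and 8547 of 19937 genes were above 0. The median change over the 9968 brighter genes was also above 0, at 0.06. Gpx1, the cytosolic peroxidase, lay between 12.61 and 12.87 at 0 h and between 12.75 and 12.94 at 24 h, with a change of 0.14 (SE 0.06, adjusted p = 0.12).

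Gpx4, which reduces lipid peroxides within membranes, lay between 9.99 and 10.74 at 0 h and between 10.52 and 10.90 at 24 h, with a change of 0.22 (SE 0.14, adjusted p = 0.30). Its second probe set gave 0.06 (SE 0.14). With the culture number as a block 9 of 10 members were called higher at 24 h, all but Gclc (-0.09, adjusted p = 0.37), beside 23.6% of all genes. Those were 2348 genes called higher and 2363 called lower. The 5 members added by the block were Gss (adjusted p = 0.0027), Gsta4 (0.020), Gpx4 (0.036), Gpx1 (0.039) and Gsr (0.045). With the block and the fibroblast covariate together 1 of 10 was called, Gclm (0.66, adjusted p = 0.015), beside 12% of all genes.

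From 24 to 48 h 9 of 10 members had a lower mean, all but Gpx1, while 11332 of 19937 genes had a higher mean. The median change was 0.02 over all genes and -0.003 over the 9968 brighter genes. Of the members 0 of 10 were called, beside 0.105% of all genes, and 3 had an unadjusted p under 0.05 in limma, beside 6.77% of all genes. The largest were Slc7a11 at -0.96 (SE 0.33, adjusted p = 0.52), Gsta4 at -0.61 (SE 0.21, adjusted p = 0.52) and Gclm at -0.33 (SE 0.11, adjusted p = 0.50). With the culture number as a block the count stayed at 0, beside 1.04% of all genes. With array weights these 3 members were called lower, at -1.17, -0.55 and -0.38 (adjusted p = 0.021, 0.038 and 0.010), in a fit that called 3.51% of all genes, 298 higher and 402 lower.

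The second question was whether the resistant lines kept these genes at another level without the drug. None of the 10 members was called in the 4 untreated lines against parental cells at 0 h, beside 0.0752% of all genes, and 2 had an unadjusted p under 0.05 in limma, beside 7.1%. Gsta4 differed most: R100, R500, R1000 and R4000 measured 7.04, 6.81, 6.82 and 7.42, all below the lowest parental array of 7.57. The difference was -0.60 (SE 0.12, 95% interval -0.86 to -0.33), or 1.51-fold lower, with an adjusted p of 0.12. Lines all below the parental arrays were seen for 1 of 10 members and for 1.33% of all genes. Without R4000 Gsta4 was called (-0.73, adjusted p = 0.040), and without each other array in turn it was not. The fibroblast means of these arrays, 8.14 to 8.33, lay inside the parental 0 h range.

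Gstm1 went the other way, at 8.51, 8.58, 8.34 and 8.49 in the same order of lines against 7.74 to 8.53 in parental cells, and its difference of 0.38 (SE 0.14) was not called (adjusted p = 0.54). Slc7a11 measured 6.27, 7.05, 6.34 and 7.04, within the parental range for R500 and R4000 and below it for R100 and R1000. Gclm measured 10.85, 11.15, 10.90 and 10.95, within the parental range, with a difference of -0.12 and a 95% interval of -0.41 to 0.17. The interval for the ligase partner Gclc was -0.44 to 0.02, for Gss -0.13 to 0.46, for Gsr -0.38 to 0.12, for Gsto1 -0.10 to 0.29, for Gpx1 -0.16 to 0.23 and for Gpx4 -0.35 to 0.29. A slope over the steps from parental cells to R4000 called 0 of 10 members and 0% of all genes in limma. Gsta4 was the 1 member with an unadjusted p under 0.05, at -0.15 per step (SE 0.06, adjusted p = 0.88), as had 4.36% of all genes.

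The third question was whether treated resistant cells responded as parental cells did. In R500, R1000 and R4000 after 24 h 0 of 10 members were called against the untreated lines, beside 0.0301% of all genes, and 0 had an unadjusted p under 0.05, beside 2.9%. Gclm went from 11.15 to 11.39 in R500, from 10.90 to 10.99 in R1000 and from 10.95 to 11.01 in R4000. It was thus higher in 3 of 3 lines, by 0.05 to 0.24, which is less than the smallest parental rise of 0.31. The mean change was 0.13 (SE 0.14, 95% interval -0.17 to 0.42). Slc7a11 went from 7.05 to 6.49, from 6.34 to 6.36 and from 7.04 to 5.89, whereas it rose in all 5 parental cultures. The fibroblast mean fell by 0.19, 0.07 and 0.54 in R500, R1000 and R4000.

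The difference in response, resistant minus parental, was negative for all 10 members, while it was above 0 for 10586 of 19937 genes. Brighter genes leaned the way of the members. The median difference was -0.06 over the 9968 genes whose mean level lay above the median gene, against 0.02 over all genes. All members but Slc7a11 were among those 9968. The difference was called for 0 of 10 members and for 0% of all genes, and 5 members had an unadjusted p under 0.05 in limma, beside 7.83% of all genes. It was -1.83 for Slc7a11 (SE 0.48, adjusted p = 0.34), -0.89 for Gstm1 (SE 0.28, adjusted p = 0.39) and -0.53 for Gclm (SE 0.17, adjusted p = 0.41). Gss and Gsr were higher in 5 of 5 parental cultures and lower in 3 of 3 lines, with differences of -0.47 each (adjusted p = 0.56 and 0.60). How common that pattern was among all genes was not counted. The difference in response and the 24 h comparison share the parental arrays. With the fibroblast mean as a covariate the difference was -0.80 for Slc7a11, -0.38 for Gstm1 and -0.56 for Gclm, and it turned positive, at 0.15 and 0.29, for Gsto1 and Gsta4 (adjusted p = 0.95 for all 5).

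**Figure D5:**
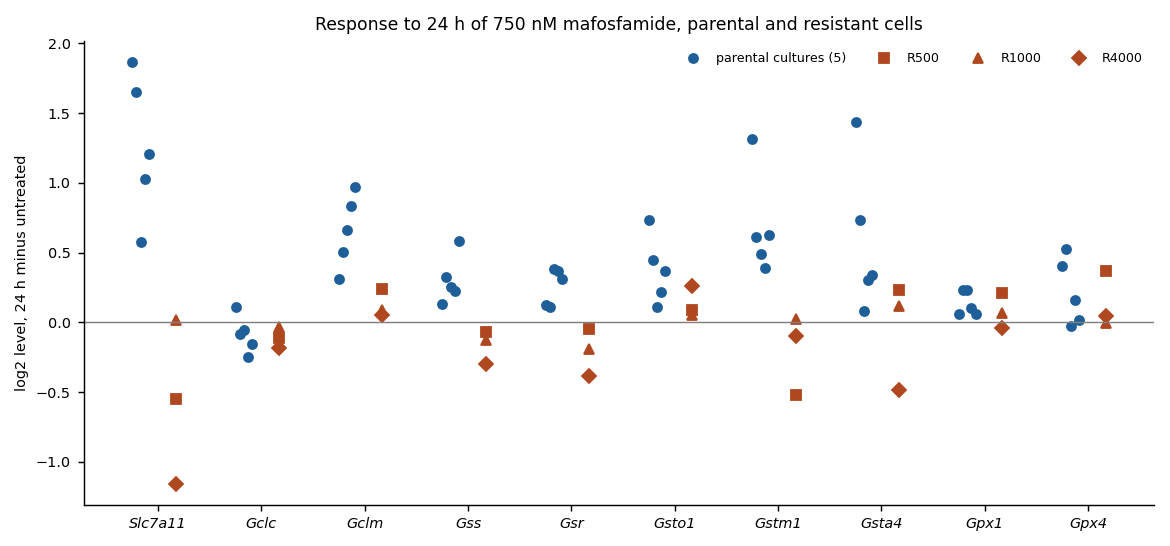
Log2 level after 24 h of 750 nM mafosfamide minus the untreated level (vertical axis) for each member (horizontal axis), with 5 parental cultures paired by culture number as circles and R500, R1000 and R4000 as a square, a triangle and a diamond. For Slc7a11 the parental cultures lie between 0.58 and 1.87 and the lines between -1.16 and 0.01.

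The wider pathway was read from 8 lists with 82 measured genes: cysteine supply, glutathione turnover, other transferases, other peroxidases and glutaredoxins, NADPH supply, glutathione transport, the thioredoxin system, and NRF2 with its regulators. The last list also held Hmox1 and Nqo1, known targets of NRF2. At 24 h 11 of the 82 were called higher and 2 lower, with a median change of 0.08, beside 6.78% of all genes (867 higher and 484 lower), a share that also stands beside the counts of each list given here. With the culture number as a block it was 22 higher and 6 lower, beside 23.6% of all genes (2348 higher and 2363 lower). At 6, 12 and 48 h and in the resistant lines 0 of 82 were called in limma. There 11, 16, 13 and 12 of the 82 had an unadjusted p under 0.05, beside 5.13%, 11.9%, 11.7% and 7.1% of all genes. With the block 4 of 82 were called at 6 h, 2 higher and 2 lower, beside 0.311% of all genes. Of the list around NRF2, 3 of 9 genes rose at 24 h. They were the NRF2 targets Hmox1, heme oxygenase (1.88, SE 0.45, adjusted p = 0.018), and Nqo1, a quinone reductase (1.84, SE 0.36, adjusted p = 0.0049), and Nfe2l2, which encodes NRF2 (0.55, SE 0.13, adjusted p = 0.017). The 6 genes not called were regulators of NRF2, among them the inhibitor Keap1 with a change of 0.08 (SE 0.13, adjusted p = 0.68). In the untreated resistant lines these 4 named genes differed from parental cells by -0.21, -0.39, 0.01 and 0.02, with none called.

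Of glutathione transport 2 of 7 genes rose at 24 h, Abcc1 (0.62, adjusted p = 0.0049) and Abcc5 (0.40, adjusted p = 0.039); Abcc1 exports glutathione conjugates. Of NADPH supply 2 of 6 rose, Idh2 (0.65, adjusted p = 0.0021) and Pgd (0.22, adjusted p = 0.044), both dehydrogenases that yield NADPH. Of the thioredoxin system 2 of 11 rose and 1 fell: Txnrd1, thioredoxin reductase, by 0.57 (adjusted p = 0.012), Prdx1, a peroxiredoxin, by 0.21 (adjusted p = 0.039), and Txnip, the thioredoxin inhibitor, at -0.35 (adjusted p = 0.023). Of glutathione turnover Ggct rose (0.34, adjusted p = 0.040), 1 of 11. Of cysteine supply the neutral amino acid carrier Slc1a4 fell (-0.49, adjusted p = 0.022), 1 of 5. Of other peroxidases and glutaredoxins Gpx8, a peroxidase of the endoplasmic reticulum, rose (1.54, adjusted p = 0.028), 1 of 10, and its correlation with the fibroblast mean over the parental arrays was 0.97. Of the other transferases 0 of 23 were called, with changes from -0.19 to 0.55. With the fibroblast mean as a covariate 2 of the 82 genes were called at 24 h, beside 2.49% of all genes: Abcc1 (0.71, adjusted p = 0.014) and Txnrd1 (0.66, adjusted p = 0.028). Both had, like Gclm, a low correlation with the fibroblast mean (0.27 and 0.07). That did not set them apart. Txnip (-0.02), Ggct (0.23), Abcc5 (0.28), Pgd (0.28) and Slc1a4 (-0.24) also had low correlations and were no longer called with the covariate. Neither were Nqo1, Hmox1 and Nfe2l2, whose correlations were 0.57, 0.51 and 0.33.

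Over all 30 arrays the genes whose level went most closely with that of Gclm were Mettl7a1 (r = 0.90), Txnrd1 (0.89) and Trim30a (0.84). For Slc7a11 they were Igf1r (0.93), Tmem47 (0.92) and Slc27a1 (0.92), for Gsr they were Ptgir (0.92), Mier3 (0.88) and Gadd45a (0.86), and for Gclc they were Foxp4 (0.91), Tmem131l (0.87) and Cbx7 (0.86). For Gss they were Kctd10 (0.88), Galnt2 (0.84) and Dync1i2 (0.83), and for Gsto1 Pcbp4 (0.87), Ctbp2 (0.86) and Spats2 (0.85). For Gstm1 they were Rab31 (0.85), Renbp (0.84) and Plod1 (0.83), and for Gsta4 Myo1d (0.85), S100a1 (0.84) and Mdfic (0.84). The peroxidases had Cib1 (0.78), Chid1 (0.78) and Abcb10 (0.78) beside Gpx1, and Tspo (0.86), Abhd17a (0.83) and Ryk (0.83) beside Gpx4. These correlations describe arrays that share groups and cultures. Txnrd1 is the only gene among them that the wider lists also hold.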

How the data were processed

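RNA was extracted with a column kit (RNeasy) and hybridised to Affymetrix Mouse Gene ST 1.0 arrays. The authors summarised probe sets by robust multi-array averaging (justRMA in affy) and deposited log2 values. It corrects background and forces the probe intensities of all arrays to a common distribution before the probe sets are summarised. Shifts in the total RNA of a cell cannot be seen after this step, and the number of arrays limits precision. RMA, affy and the build mm9 are named in the submitters' processing notes. The table held 34760 probe sets; 21640 had 1 symbol in the platform annotation, 1321 several and 11799 none here, which left 19937 genes after 954 with several probe sets were reduced to the one with the highest mean.

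The deposited log2 values were fitted in R 4.3.3 with limma 3.58.1 (lmFit, eBayes) and adjusted by the Benjamini-Hochberg method over all genes, with a threshold of 0.05. Parental times were fitted over 23 arrays with a mean per time, the untreated lines over 9 arrays as a mean difference or a slope, and the response over 16 arrays with a term per line. The fits of the 24 h change, the untreated lines and the treated lines were run on simulated data with a known change. The simulated noise was independent between arrays, so effects of shared cultures or feeder cells were not covered. Groups came from the labels. For the parental times, p-values measure the spread between cultures of 1 line. For the untreated lines they pool the spread of the parental arrays with differences between the lines. In the response fit the spread comes mostly from the parental arrays, so the SEs of the treated lines rest largely on those. All members, and every called gene of the wider lists, were to be named, with the 3 genes of highest correlation per member. The members and lists were chosen with earlier results of these data known.

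The titles number the 6 h and 12 h arrays from 1 to 4 and the descriptions from 2 to 5; the description is the culture number here. Arrays of the same number deviated together (correlation over 0.1 for every pair) for 6 h and 24 h against 0 h (lowest 0.31 and 0.13) and for 48 h against 24 h (0.39), but not for 12 h and 48 h against 0 h (lowest 0.076 and 0.065). Alternatives were median and housekeeping centring (7 of 10 genes measured), a filter on dim genes, the mean of a gene's probe sets, array weights, a fibroblast covariate, blocks, other sets of arrays and leaving out each array. Sequences came from RefSeq tables of GRCm38.p6. Proteins were not used here.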

Additional observations from a re-analysis of the deposited data

Results flagged for a closer look

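Among 60 groups of 4 or 5 arrays (10 members, 5 parental times and the untreated lines), 6 had an array far from the others by Dixon's test, which chance alone sets off in about 1 group in 20. For Gclc the lowest array stood apart at 6 h (12.59), 12 h (12.36) and 24 h (12.30), and for Gsr at 12 h (9.95) and 48 h (9.76). These 5 arrays all carried culture number 2, which was the lowest array of every member at 12 h. For Gsto1 the highest array stood apart at 0 h (11.13); it was culture number 4, which also had the highest fibroblast mean at 0 h (8.49).

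For Gss and Gsr the change at 24 h ran up in every parental culture and down in every treated resistant line. How common that pattern was among all genes was not counted. The difference in response was -0.47 for Gss (SE 0.19, adjusted p = 0.56) and -0.47 for Gsr (SE 0.21, adjusted p = 0.60), so the limma test of the difference itself was not passed.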

How the results depend on the processing

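No called member changed direction under any alternative; the share of all genes called stands in brackets. At 6 h 1 member was called (0.0201%); the count was 0 with median centring (0.01%), 0 with the 2 groups alone (0%), 2 with the replicate block (0.311%) and 3 with the block and the fibroblast covariate together (Gclm, Gsr and Gclc; 0.567%). At 12 h it was 1 (0.512%), and 0 with the 2 groups alone (0.0903%), 2 with the block (3.55%) and 2 with block and covariate (7.91%). At 24 h it was 4 (6.78%), and 1 with array weights (5.01%), 1 with the fibroblast covariate (2.49%), 1 with the 2 groups alone (0.612%), 9 with the block (23.6%), 6 with a block on the title's number (13.7%), 1 with block and covariate (12%), and 0 with only the 24 h array inside the 0 h fibroblast range (0.135%). At 48 h it was 0 (0.251%), and 2 with the block (Gclc lower at -0.29, adjusted p = 0.030, and Gss higher; 3.28%) and 2 with block and covariate (7.86%). From 24 to 48 h it was 0 (0.105%), and 3 with array weights (3.51%). Of the 82 genes of the wider lists the block called 12 at 12 h, 5 at 48 h and 1 from 24 to 48 h, against 0 without it, and the fibroblast covariate called 1 at 6 h and 3 at 12 h. The block left the count of members at 0 from 24 to 48 h (1.04%), for the treated lines (0.13%) and for the difference in response (0.0401%). The combined fit and the fit on that 1 array were chosen after seeing the data. Leaving out each array in turn gave 0 to 1 called members at 6 h, 0 to 1 at 12 h, 1 to 6 at 24 h and 0 to 1 for the untreated lines, and 0 at 48 h, from 24 to 48 h, for the slope, for the treated lines and for the difference in response. Slc7a11 lay below the filter on dim genes, which tested 9968 genes and called 3 members at 24 h (10.6%). The other settings stayed within 1.5 times of these counts, and the cause of each change was not tested.

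The resistant lines have 1 array each, so no line has its own error. Signal over background was not given with the deposited values.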

Other observations

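Probe sets that carry several transferase symbols belonged to no gene tested above and were fitted over all 34760 probe sets. The probe set shared by Gsta1, Gsta2, Gm10639 and Gm3776 with the largest change was at 4.93 at 0 h and 1.05 higher at 24 h (SE 0.35, adjusted p = 0.096), while the 2 other probe sets with these symbols changed by -0.10 and -0.05. The 2 probe sets shared by Gstp1 and Gstp2, the pi-class transferases, changed by 0.21 (SE 0.10, adjusted p = 0.21) and 0.14 (SE 0.09, adjusted p = 0.35) at 24 h, and by -0.08 and -0.02 in the untreated resistant lines. None was called.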
